A study of Mus musculus with 2 samples.

Results

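Muscle myosin light chains, their kinases and the myosin-binding proteins were examined in the gastrocnemius (GAS) muscle of *Gde5* skKO and WT mice. The set holds 10 genes, *Myl1*, *Myl2*, *Myl3*, *Myl4*, *Mylpf*, *Mylk*, *Mylk2*, *Mybpc1*, *Mybpc2* and *Mybph*, listed by name, a choice made with earlier results of these data known. All 10 were found on the arrays, through 16 of 41174 probes, and all 10 were among the 13589 measured genes, which on each array had signal well above background in the channel of at least 1 genotype. *Mybpc1* is listed on the arrays under the older name 8030451F13Rik. The only member probe that was not measured is 1 of the 3 probes of *Mylk*.

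*Myl2*, the regulatory light chain of slow and cardiac myosin, and *Mybpc1*, the myosin-binding protein C of slow fibers, were higher in *Gde5* skKO muscle on both arrays, by 1.79-fold and 1.62-fold. No member was called lower. Over all measured genes 1.58% were called higher and 1.73% lower. The fast regulatory light chain *Mylpf* and the fast myosin-binding protein *Mybpc2* moved opposite ways on the arrays. The skeletal muscle light chain kinase *Mylk2* and *Mybph* had ratios below 0 on both arrays without passing the threshold on both.

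Each muscle myosin head carries an essential and a regulatory light chain on the lever arm of the heavy chain. The essential chain stiffens the lever arm, and the regulatory chain can be phosphorylated by a light chain kinase that is switched on by calcium, which in skeletal muscle raises force at low calcium. Fast and slow fibers use different genes for these chains and for myosin-binding protein C, which ties myosin heads to the thick filament, and the slow chains are shared with the ventricle of the heart. GAS is a mixed muscle in which fast fibers prevail.

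The arrays compare male mice aged 15 weeks on a normal diet, WT and *Gde5* skKO, and the labels name 5 mice of each genotype. *Gde5* skKO mice carry HSA-Cre and *Gde5* flox/flox alleles, with exon 11 between the loxP sites, so that the human skeletal actin promoter limits the deletion to skeletal muscle and other cells of the muscle keep the gene. The study's methods use *Gde5* flox/flox littermates without Cre as controls in its other tests, and the labels call the controls of the arrays wild-type. Array 1 had Cy3 on the WT side and Cy5 on the *Gde5* skKO side, and array 2 the reverse. The study describes array comparisons after glucose injection and with fasting, and the labels do not say which of them these arrays are. From the labels it is also not known if the RNA of several mice was mixed or if the arrays shared an RNA sample. The values therefore describe 2 hybridizations and allow no test across mice.

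Every ratio is given as log2 of *Gde5* skKO over WT. Calls of higher or lower required a p-value under 0.05 from Agilent Feature Extraction on both arrays, with both ratios on the same side of 0. That p-value comes from an error model of single spots and takes no account of differences among mice. By this rule 3.31% of all measured genes were called, 1.58% higher and 1.73% lower, and 216 genes passed it in the direction of the dyes. The shares of spots well above background ran from 44.6% to 53.2% over the 4 channels. Of the 4 probes of *Gde5*, 3 were called lower, with ratios from -3.29 to -2.59. Markers of skeletal muscle were all measured, 7 of 7, and none was called. Of 6 fat markers, 5 were called lower, and *Fabp4* had a mean of 0.05, while the summed signal of the list was 43777 and 45066 in WT and 43232 and 41144 in *Gde5* skKO. Such a sum adds probes of unequal brightness and follows the brightest of them, here *Fabp4*, and the other 5 fat markers summed to 8139 and 7879 in WT and 4365 and 4376 in *Gde5* skKO. Of the markers of tendon and fibroblasts 6 of 6 were measured and none was called, of blood 2 of 3 and none, and of liver 3 of 6, with *Apoh* called higher and *Mup1* lower. The part of these tissues in the ratios of the members was not tested.

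The promoters of the called genes *Myl2* and *Mybpc1*, of their fast counterparts *Mylpf* and *Mybpc2*, and of the slow essential chain *Myl3* are shown. *Myl3* was not called, and the window of *Myl1*, its fast counterpart, is not shown. The windows come from RefSeq on GRCm38.p6 and hold the 250 bases before an annotated start, read 5′ to 3′ on the strand of the gene. RefSeq's table held 10 windows of 9 members, with an upstream and a downstream start for *Myl2*. *Mylk2* was not among them. Capitals mark the E-box CANNTG, bound by myogenic bHLH factors, the TATA box TATAAA, the MCAT element CATTCC, the NFAT core GGAAA, the GC box GGGCGG, the MEF2 site and the CArG box, each searched on both strands.
*Myl2* upstream start, chr5:122092474-122092723, plus strand: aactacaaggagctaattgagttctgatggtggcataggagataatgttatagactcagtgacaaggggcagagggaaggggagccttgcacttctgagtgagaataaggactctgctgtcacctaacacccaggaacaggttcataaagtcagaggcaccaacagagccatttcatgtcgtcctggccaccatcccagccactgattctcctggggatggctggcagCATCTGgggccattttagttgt
*Myl2* downstream start, chr5:122092939-122093188, plus strand: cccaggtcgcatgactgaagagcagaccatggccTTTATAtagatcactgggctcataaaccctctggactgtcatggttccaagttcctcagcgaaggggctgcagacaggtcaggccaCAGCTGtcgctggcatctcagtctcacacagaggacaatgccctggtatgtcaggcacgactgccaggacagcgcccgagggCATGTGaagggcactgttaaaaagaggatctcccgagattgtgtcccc
*Myl3*, chr9:110763428-110763677, plus strand: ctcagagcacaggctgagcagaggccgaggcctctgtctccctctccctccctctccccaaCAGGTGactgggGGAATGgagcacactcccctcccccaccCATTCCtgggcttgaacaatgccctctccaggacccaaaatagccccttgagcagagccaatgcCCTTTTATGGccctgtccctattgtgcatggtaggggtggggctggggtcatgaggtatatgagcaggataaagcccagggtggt
*Mybpc1*, chr10:88605153-88605402, minus strand: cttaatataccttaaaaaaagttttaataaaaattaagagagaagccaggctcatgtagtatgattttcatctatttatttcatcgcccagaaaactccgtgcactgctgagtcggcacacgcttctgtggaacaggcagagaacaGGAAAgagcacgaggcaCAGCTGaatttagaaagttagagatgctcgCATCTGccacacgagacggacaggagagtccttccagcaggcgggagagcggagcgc
*Mylpf*, chr7:127211358-127211607, plus strand: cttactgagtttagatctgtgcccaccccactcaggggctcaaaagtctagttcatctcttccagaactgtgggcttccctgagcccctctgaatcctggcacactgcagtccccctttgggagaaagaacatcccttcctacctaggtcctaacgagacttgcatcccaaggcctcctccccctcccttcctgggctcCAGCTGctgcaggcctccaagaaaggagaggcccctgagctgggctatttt
*Mybpc2*, chr7:44524670-44524919, minus strand: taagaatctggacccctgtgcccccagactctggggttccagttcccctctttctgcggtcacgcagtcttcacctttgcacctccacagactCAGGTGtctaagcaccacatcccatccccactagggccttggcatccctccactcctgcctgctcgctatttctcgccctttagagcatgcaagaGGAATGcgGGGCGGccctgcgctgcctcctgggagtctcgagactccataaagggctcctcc

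The E-box stood in 8 of the 10 member windows and in 66.2% of all 32851 promoter windows of this length. In *Mybpc1* its letters lay 87 and 57 bases before the start, in *Myl2* 130 and 48 bases before the downstream start, and in *Mylpf* 51 bases before it. MCAT letters were found in 5 member windows and in 12.6% of all windows, with 2 matches in *Myl3* and 1 in *Mybpc2*. The CArG box was found in *Myl3* alone among the members, 85 bases before the start, and in 1.47% of all windows. The NFAT core was in 4 member windows and 55.6% of all windows, and in *Myl4*, which is not shown above, it occurred 4 times. The TATA box was in 3 member windows and 12.4% of all windows, the GC box in 1 and 32.7%, and the MEF2 site in 0 and 2.92%. Among the motifs searched no matches overlapped in the 6 windows shown. A match of letters is no evidence of a bound site, and the absence of a match says nothing of the factor.

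*Myl2* encodes the regulatory light chain of slow skeletal and ventricular myosin. Its probe maps to chr5:122364530-122365480 on the plus strand of mm8, the assembly of the array annotation, and these ends lie further apart than the 60 bases of a probe, so the probe crosses at least 1 splice junction. The processed signal, the background-subtracted and dye-normalized brightness of a spot in arbitrary units, was 17183 in WT and 30014 in *Gde5* skKO on array 1. On array 2 it was 17330 in WT and 31677 in *Gde5* skKO. Both *Gde5* skKO signals lay far above both WT signals, and the WT signals of the arrays were close to each other although the dyes differed. The log2 ratio was 0.80 on array 1, with an error of 0.22 and a Feature Extraction p of 0.000207. On array 2 it was 0.87, with an error of 0.22 and a Feature Extraction p of 7.09e-05. The mean was 0.84 ± 0.05 (SD, n = 2 arrays). *Myl2* stood at rank 65 of the 215 genes called higher, ordered by mean ratio.

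*Mybpc1* encodes the slow isoform of myosin-binding protein C. Its probe lies within 60 bases at chr10:87952891-87952950 on the minus strand of mm8. The signal was 8023 in WT and 12376 in *Gde5* skKO on array 1, and 8036 in WT and 13599 in *Gde5* skKO on array 2. As for *Myl2*, the WT signals nearly coincided and both *Gde5* skKO signals were above them. The log2 ratios were 0.63 and 0.76, with Feature Extraction p-values of 0.00317 and 0.000428. The mean was 0.69 ± 0.09 (SD, n = 2 arrays), and the gene stood at rank 99 of the 215.

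*Myl3* encodes the essential light chain of slow skeletal and ventricular myosin, the partner of the *Myl2* product. The brighter of its 2 probes, at chr9:110613944-110614238 on the plus strand of mm8, gave 36776 in WT and 53787 in *Gde5* skKO on array 1. On array 2 it gave 40665 in WT and 48094 in *Gde5* skKO. All signals of *Gde5* skKO were above those of WT, but the genotypes were closer on array 2. The log2 ratio of this probe was 0.55 on array 1 and 0.24 on array 2, with Feature Extraction p-values of 0.00903 and 0.238, so *Myl3* was not called. Its other probe, at chr9:110608637-110608696, was much dimmer, with 1013 in WT and 1500 in *Gde5* skKO on array 1 and 1096 and 1440 on array 2. That probe had log2 ratios of 0.57 and 0.39, with Feature Extraction p-values of 0.00735 and 0.0598. The mean was 0.40 ± 0.22 (SD, n = 2 arrays) for the brighter probe and 0.48 ± 0.12 (SD, n = 2 arrays) for the dimmer.

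**Figure D1:**
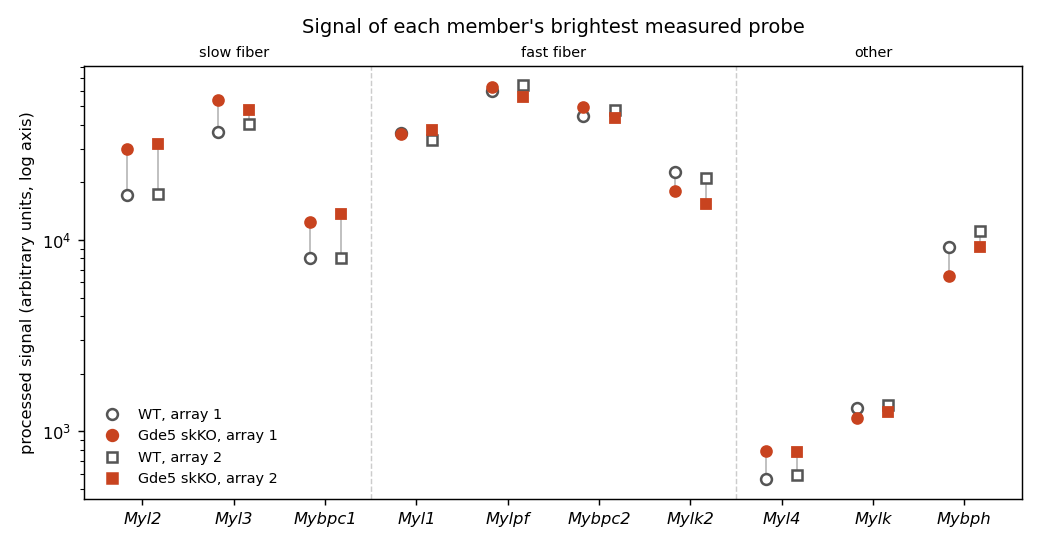
Processed signal of the brightest measured probe of each member (vertical log axis, arbitrary units) in WT (open symbols) and *Gde5* skKO (filled symbols) on array 1 (circles) and array 2 (squares), with a grey line joining the genotypes of an array. For *Myl2*, *Myl3*, *Mybpc1* and *Myl4* both filled symbols lie above both open symbols, while for *Mylpf*, *Mybpc2* and *Myl1* the order of the genotypes changes between the arrays. Signals of different probes are not comparable in level.

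All 3 slow members thus had ratios above 0 on both arrays, as did 29.2% of measured genes. Of the 3, 2 were called higher, beside 1.58% of measured genes. *Myl2* and *Myl3* are also expressed in the heart, so heart markers were read beside the slow members. Of 6 heart markers 4 were measured, and *Myl7*, the atrial regulatory light chain, and *Nppa*, the atrial natriuretic peptide, stayed near background in every channel. The summed signal of the measured heart markers was 1874 and 1945 in WT and 2715 and 2686 in *Gde5* skKO. *Myh6*, the alpha heavy chain of the heart, was called higher by its brighter probe, at a mean log2 ratio of 0.53. Its other probe had log2 ratios of 0.56 and 0.31 and was not called. The other 3 measured heart markers summed to between 169 and 217 over the 4 channels. Their sum was higher in *Gde5* skKO on array 2 and not on array 1. Of these, *Nppb* was above 0 on both arrays, at 0.66 and 0.27. *Mybpc3* was below 0 on both, at -0.54 and -0.01, and *Tnni3* changed sign. In whole muscle, more slow fibers and more slow transcript in each fiber cannot be told apart. By qPCR the study reported comparable fiber type mRNA in the genotypes, and its primers include *Myh1*, *Myh2*, *Myh4* and *Myh7*.

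The fast members *Mylpf* and *Mybpc2* did not follow the slow ones, and the probes of *Myl1* disagreed. *Mylpf* encodes the fast regulatory light chain, the counterpart of *Myl2*, and its probe at chr7:127004383-127004619 on the plus strand of mm8 crosses a splice junction. The signal was 60273 in WT and 62830 in *Gde5* skKO on array 1, and 64423 in WT and 55820 in *Gde5* skKO on array 2. The channel labelled with Cy5 was the brighter on both arrays, and the genotypes overlapped. The log2 ratios were 0.06 and -0.21, with Feature Extraction p-values of 0.769 and 0.313.

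*Mybpc2*, the fast isoform of myosin-binding protein C, behaved alike. Its probe at chr7:44369762-44369821 on the minus strand of mm8 gave 44728 in WT and 49808 in *Gde5* skKO on array 1, and 47820 and 43623 on array 2. Here too the Cy5 channel was the brighter each time, and the log2 ratios were 0.16 and -0.13 with Feature Extraction p-values of 0.448 and 0.517.

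*Myl1* encodes the fast essential light chain, of which fast fibers make a long and a short form from alternative starts, and its probes disagreed. The brighter probe, at chr1:66857582-66857641 on the minus strand of mm8, gave 36448 in WT and 35984 in *Gde5* skKO on array 1 and 33287 and 37751 on array 2. Its log2 ratios were -0.02 and 0.18, with Feature Extraction p-values of 0.928 and 0.375. The other probe, at chr1:66863487-66867734, spans 4248 bases of the genome across a splice junction. It gave 35037 in WT and 39926 in *Gde5* skKO on array 1, and 25112 and 38506 on array 2, so that both *Gde5* skKO signals were above both WT signals. Its log2 ratios were 0.19 and 0.62, and the Feature Extraction p was 0.357 on array 1 and 0.00357 on array 2. Neither probe was called, and which form each probe reads was not determined.

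*Mylk2* encodes the kinase that phosphorylates the regulatory light chain in skeletal muscle. The signal of its probe at chr2:152614405-152614464 on the plus strand of mm8 was 22669 in WT and 17939 in *Gde5* skKO on array 1, and 21220 in WT and 15351 in *Gde5* skKO on array 2. Both *Gde5* skKO signals were below both WT signals. The log2 ratios were -0.34 and -0.47, and the Feature Extraction p was 0.102 on array 1 and 0.025 on array 2, so the gene passed the threshold on array 2 alone. The mean was -0.40 ± 0.09 (SD, n = 2 arrays), and the gene was not called. The error of its spot was 0.21 on each array, larger than this SD.

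**Figure D2:**
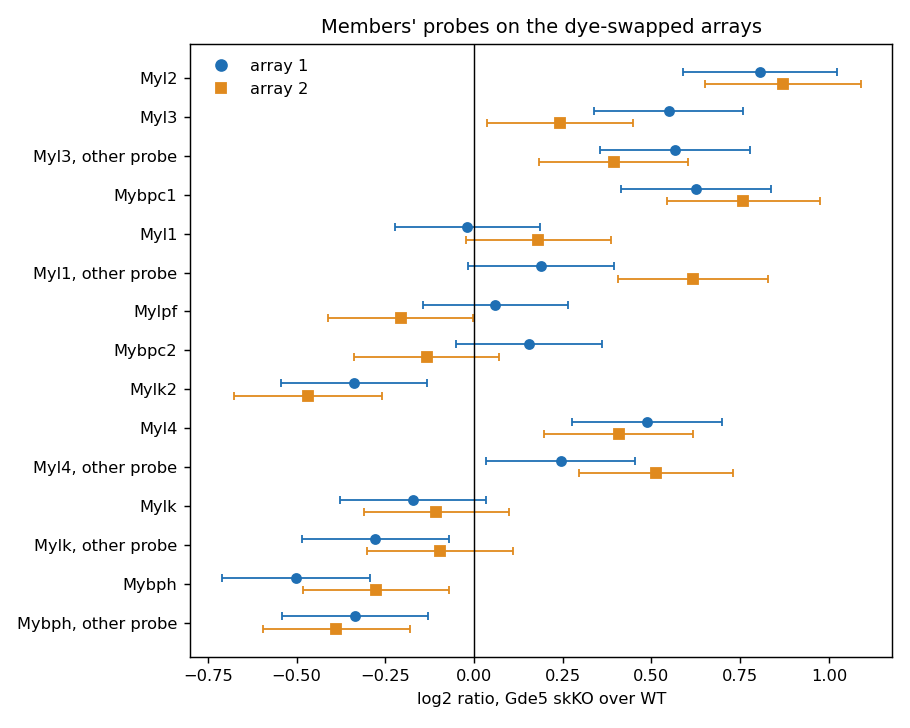
Log2 ratio of *Gde5* skKO over WT (horizontal axis) for each of the 15 measured probes of the members on array 1 (circles) and array 2 (squares), with bars of 1 error of the Feature Extraction model either way. The ratios of *Myl2* and *Mybpc1* lie at 0.63 or above on both arrays, those of *Mylk2* and both *Mybph* probes below 0, and the *Myl1* probes differ from each other.

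Each slow gene was set against its fast counterpart within an array, by the brightest probes. The log2 ratio of *Myl2* exceeded that of *Mylpf* by 0.74 on array 1 and by 1.08 on array 2. For the essential chains, *Myl3* exceeded *Myl1* by 0.57 and by 0.06, so the gap nearly closed on array 2. Averaged over measured probes, the order of this pair turned on array 2, with 0.32 for *Myl3* and 0.40 for *Myl1*. For the myosin-binding proteins, *Mybpc1* exceeded *Mybpc2* by 0.47 and by 0.89. These differences of ratios are descriptions over 2 arrays, of genes chosen with earlier results known. Of the 4 fast members none was called, beside 3.31% of all measured genes. Their median ratio was -0.03 over both arrays, or 0.01 with limma's background correction and loess, against 0.01 over all measured genes. Closely related chains can bind each other's probes, and the sequences of the probes were not used here.

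*Myl4* encodes the essential light chain of the atrium and of embryonic muscle and is silent in most adult fibers. It was dim but well above background in all 4 channels. The brighter probe, at chr11:104400211-104400581 on the plus strand of mm8, gave 560.1 in WT and 785 in *Gde5* skKO on array 1 and 588 and 780 on array 2. Its neighbour at chr11:104400198-104400568 overlaps it almost entirely and is no independent measurement, with 284 and 336 on array 1 and 261 and 372 on array 2. Both probes were higher in *Gde5* skKO each time, and both were past the threshold on only 1 array. The log2 ratios of the brighter probe were 0.49 and 0.41, with Feature Extraction p-values of 0.0209 and 0.0518, so *Myl4* missed the call by little. Those of its neighbour were 0.24 and 0.51, with p-values of 0.247 and 0.0179 from the same software. The mean of the brighter probe was 0.45 ± 0.06 (SD, n = 2 arrays), and with limma's background correction and loess it was 0.36.

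Since *Myl4* marks young fibers, genes of satellite cells and regenerating muscle were read beside it. Of 6 such genes 5 were measured and 1 was called higher, beside 1.58% of all measured genes. It was the embryonic heavy chain *Myh3*, at a mean log2 ratio of 1.72, or 0.86 with background correction and loess. *Myog* and *Myod1*, factors that drive muscle differentiation, had means of 0.10 and 0.20, and *Pax7* changed sign, with -0.19 and 0.76. The neonatal heavy chain *Myh8* had -0.16 by its only measured probe, with signals from 40454 to 51039. The other probes of *Myh8*, and *Myf5*, were not well above background. Binding of related heavy chains to the bright *Myh8* probe was not tested. The summed signal of the list was 46463 and 52314 in WT and 47355 and 42114 in *Gde5* skKO. Most of it was *Myh8*, and the other 4 genes summed to 1090 and 1275 in WT and 1493 and 1660 in *Gde5* skKO. The part of regenerating fibers in the ratio of *Myl4* was not tested.

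*Mybph* encodes myosin-binding protein H, which resembles the end of myosin-binding protein C and sits in the thick filament of fast fibers. Its brighter probe, at chr1:136016493-136016810 on the plus strand of mm8, gave 9159 in WT and 6473 in *Gde5* skKO on array 1, and 11097 and 9163 on array 2. The genotypes were apart within each array, but the *Gde5* skKO signal of array 2 reached the WT signal of array 1. The log2 ratios were -0.50 and -0.28, with Feature Extraction p-values of 0.0166 and 0.179. The other probe, at chr1:136016833-136017392, gave 5468 and 4335 on array 1 and 5166 and 3949 on array 2. Its log2 ratios were -0.33 and -0.39, with Feature Extraction p-values of 0.105 and 0.0615. Both probes had means near each other, -0.39 ± 0.16 and -0.36 ± 0.04 (SD, n = 2 arrays), and neither was called.

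*Mylk* encodes the light chain kinase of smooth muscle and non-muscle cells, which in a muscle sample mostly reads vessels and connective tissue. Its brightest probe, at chr16:34916500-34916559 on the plus strand of mm8, gave 1319 in WT and 1171 in *Gde5* skKO on array 1 and 1363 and 1266 on array 2, with log2 ratios of -0.17 and -0.11 and Feature Extraction p-values of 0.401 and 0.605. The probe at chr16:34914823-34914882 had ratios of -0.28 and -0.10. The remaining probe, at chr16:34873779-34873838, had signals from 6.81 to 11.3, not well above background, and gives no ratio. Of the smooth muscle markers 7 of 7 were measured and none was called, beside 3.31% of all measured genes. Their summed signal was 31711 and 33027 in WT and 37623 and 38704 in *Gde5* skKO. Without *Acta2* the other 6 summed to 12839 and 12773 in WT and 11357 and 13647 in *Gde5* skKO. On both arrays *Acta2*, *Smtn* and *Lmod1* were above 0 and *Myl9* and *Myh11* below, beside 29.2% and 25.3% of measured genes.

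**Figure D3:**
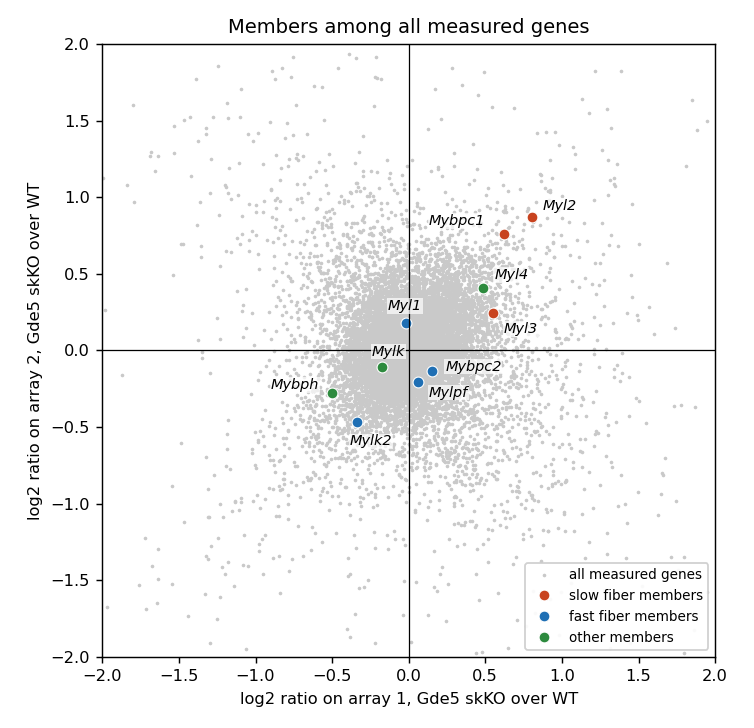
Log2 ratio of *Gde5* skKO over WT on array 1 (horizontal axis) and array 2 (vertical axis) for the measured genes (grey) and the 10 members (colored by fiber use). *Myl2* and *Mybpc1* lie in the upper right away from the bulk of the genes, and the fast members *Myl1*, *Mylpf* and *Mybpc2* lie near the origin with opposite signs on the arrays. The axes end at 2 either way, and 103 of the 13589 genes lie outside.

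Over the whole set, 2 of 10 members were called higher and 0 lower, beside 1.58% and 1.73% of all measured genes. Without regard to p, 4 members were above 0 on both arrays, 3 below 0 on both, beside 29.2% and 25.3% of measured genes, and 3 changed sign between the arrays. Both *Gde5* skKO signals were above both WT signals for 4 members (*Myl2*, *Myl3*, *Mybpc1* and *Myl4*) and below them for 2 (*Mylk2* and *Mylk*), beside 21.0% and 17.8% of measured genes. The members' mean ratios ran from -0.40 for *Mylk2* to 0.84 for *Myl2*, with a median of 0.05. In this order *Myl4* and *Myl3*, with 0.45 and 0.40, and *Mylk2* and *Mybph*, with -0.40 and -0.39, differed by less than their spread over the arrays. *Myl2* and *Mybpc1* differed by 0.15, with an SD of 0.05 and 0.09, which is less than the error of a single spot. The errors of the members' spots were nearly alike, from 0.20 to 0.22, so the calls followed the size of the ratios.

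Of 7 slow thin filament and calcium genes 2 were called higher, beside 1.58% of measured genes. They were *Tnni1*, the slow troponin I, and *Casq2*, the calcium store protein of slow fibers and heart, each with a mean of 0.67. *Tnnt1*, the slow troponin T, had 0.38 and 0.68 and passed on array 2 alone. The median of the list was 0.37, 5 genes were above 0 on both arrays, beside 29.2% of measured genes, and none was below 0 on both. Of 8 fast counterparts none was called, beside 3.31% of measured genes. On both arrays 6 were below 0 and 2 above, beside 25.3% and 29.2% of measured genes. The median of the fast counterparts was -0.15, or -0.08 with background correction and loess. *Pvalb*, the calcium buffer of fast fibers, had the lowest mean of these, -0.34, and passed on array 2 alone. Its WT signal was 7504 on array 1 and 1767 on array 2. *Atp2a1* had the highest mean of the fast counterparts, 0.17.

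Among the heavy chains, to which the light chains bind, 8 were measured. Of these, *Myh3* and *Myh6* were called higher, as given above, beside 1.58% of all measured genes. *Myh7*, the slow heavy chain that pairs with the *Myl2* and *Myl3* products, had log2 ratios of 0.30 and 0.36 and was not called, with Feature Extraction p-values of 0.144 and 0.0851. The fast heavy chains *Myh1*, *Myh2* and *Myh4* had means of 0.31, 0.13 and -0.20 by their brightest probes. The probes of *Myh2* disagreed, as 1 of its other 2 probes had log2 ratios of 0.83 and 0.77 and met the criteria of a call, and the remaining probe had 0.23 and 0.26.

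Of 9 genes of myosin assembly and the M-band, the line that joins thick filaments at their middle, 2 were called higher and none lower. The shares over all measured genes were 1.58% and 1.73%. The called genes were *Myom3*, an M-band protein, with log2 ratios of 0.51 and 0.44, and *Fhl1*, a LIM protein of muscle growth, with 0.78 and 0.42. *Unc45b* and *Smyd1*, which help myosin to fold, had means of 0.15 and 0.04.

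The enzymes that set light chain phosphorylation were not called in either direction. Of the 12 other light chains, kinases and relatives, 8 were measured, with means from -0.28 to 0.26. None of these was called, beside 3.31% of all measured genes. *Myl6*, the essential chain of smooth and non-muscle myosin, had -0.16 and *Myl12b*, a non-muscle regulatory chain, had 0.19. *Mylk3*, the cardiac kinase, was not well above background. The 9 subunits and inhibitors of myosin phosphatase, the enzyme that removes the phosphate, had means from -0.26 to 0.13. Of these, 5 were below 0 on both arrays and 1 above, beside 25.3% and 29.2% of measured genes. *Ppp1r12b*, the phosphatase's targeting subunit of striated muscle, had 0.13.

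**Figure D4:**
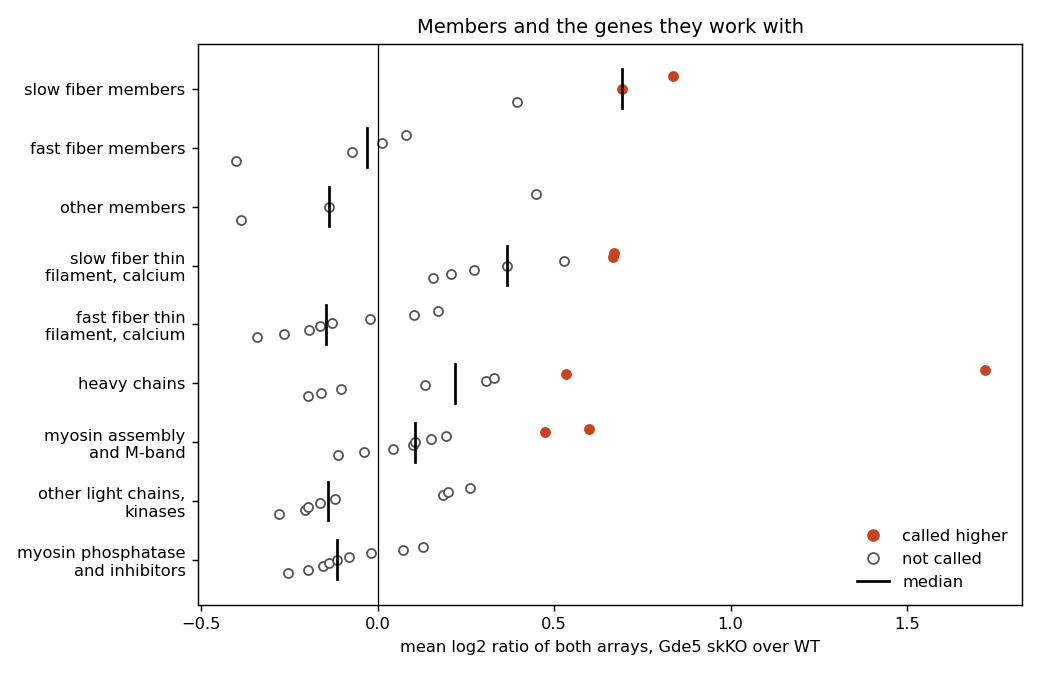
Mean log2 ratio over both arrays, *Gde5* skKO over WT (horizontal axis), for the members by fiber use and for the genes they work with, each point a measured gene, filled where it was called higher and open where it was not called, with a bar at the median of each row. Called genes lie in the rows of the slow members, the slow thin filament and calcium genes, the heavy chains and the genes of myosin assembly and the M-band.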

How the data were processed

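Gene expression was measured in GAS muscle on 2 dye-swapped Agilent whole mouse genome arrays, both on 1 slide and from 1 scan. Scans were extracted by the authors in Agilent Feature Extraction. The deposited log10 ratio of a spot is Cy5 over Cy3 after background subtraction and dye normalization, and the deposited score beside it is the error of that ratio. The authors' files also hold a p-value per spot from the error model of the software. The deposited intensity of each spot and of its local background was used for the signals and for limma. Marks of outliers, saturation and signal above background came from the same files. A deposited table of the series holds the same log10 values to fewer digits, also not turned.

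Ratios were multiplied to the log2 scale, and the sign of array 2 was turned. Of 43379 non-control spots, 195 on array 1 and 221 on array 2 carried outlier marks of the spot or its local background, and a spot marked on either array was excluded. A gene was represented by its brightest measured probe. Calls were made on the whole table, and the members read from it. Probes were named through RefSeq, 24367 by accession, 6307 by symbol and 2425 by synonym of 41174. The number of arrays limits the precision. The 10 members and the gene lists were chosen with earlier results of these data known. The text names all members, and from most lists the called genes and up to 3 others. More were named from the markers of heart, smooth muscle and regenerating muscle. *Myh2*, *Nppb*, *Smtn*, *Lmod1*, *Pax7* and *Atp2a1* were added after their values were seen. A list of genes is not reported here.

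Alternatives were other background corrections, tests, thresholds, filters and probes, and each array alone, with limma 3.58.1 under R 4.3.3. Tables were made with pandas 2.3.3, numpy 2.4.6 and scipy 1.17.1 in Python 3.11.15, and figures with matplotlib 3.10.9. The calling steps were tested on simulated data. The planted changes were larger than any member's ratio, and no spread among mice was simulated. This test therefore says nothing of calls at the members' sizes.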

Additional observations from a re-analysis of the deposited data

How the results depend on the processing

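*Myl2* and *Mybpc1* kept ratios above 0 under the 15 alternatives run and on each array alone, from 0.80 to 0.87 and from 0.63 to 0.76. *Myl2* was called under 14 and *Mybpc1* under 13 of the 15. Each of these genes has a single probe, so other thresholds, filters and probe choices could not change its ratio. Calls with other background corrections and with the deposited table of the series reused the same Feature Extraction p. These counts are therefore largely set by construction. After adjustment of the Feature Extraction p within each array 1 member remained higher, *Myl2*, with 50 genes higher, 76 lower and 10 in the dye direction. With the methods' t-test on log2 channel signals after adjustment 0 members and 0 genes were higher and 0 lower, and at its unadjusted threshold 617 genes were higher and 572 lower, with *Myl2*, *Myl4* and *Mybpc1* among them. Limma's moderated test with Benjamini-Hochberg adjustment left 33 genes higher and 65 lower, among them *Myl2* (adjusted p = 0.0148) and *Mybpc1* (adjusted p = 0.0349). At an unadjusted p of the same test 574 genes were higher and 575 lower, with 4 members higher (*Myl2*, *Myl3*, *Myl4*, *Mybpc1*) and 2 lower (*Mylk2*, *Mybph*).

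Both tests take the arrays as replicates, so neither measures the spread among mice. Limma tests the ratios of a gene against a variance moderated towards that of all genes. The t-test compares the log2 signals of the genotypes without pairing, against the spread of each genotype between the arrays. With a Feature Extraction p under 0.01 there were 107 genes higher, 127 lower and 72 in the dye direction, and with a mean fold of at least 1.5 besides 142 were higher. The dye direction held 58 genes with the filter on both channels and 360 without a filter. On single arrays the higher genes numbered 928 to 974 and the lower 723 to 914, with 2 to 4 members higher and 1 to 1 lower, which was *Mylk2* on array 2 and *Mybph* on array 1. Stricter thresholds and single arrays move the counts by construction. For the t-test and limma the cause was not tested. The ratio of *Myl1* was 0.08 from the brighter probe and 0.24 over both probes, and that of *Myl4* was 0.45 and, with loess, 0.34 to 0.36. No member's mean changed sign under the alternatives that keep both arrays, whereas *Myl1*, *Mylpf* and *Mybpc2* have opposite signs on the single arrays. No paired analysis was possible because replicates are numbered by array, and within an array the ratio already pairs the genotypes. A block for slide or scan could not be fitted, because they are common to both arrays.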

Other observations

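Probes of the same member were set beside each other, without a test. For *Myl3*, *Myl4*, *Mybph* and *Mylk* the measured probes gave ratios on the same side of 0 on both arrays, and for *Myl1* they did not. The dimmer *Myl1* probe, at chr1:66863487-66867734, differed most between the genotypes on array 2, where the WT signal was 25112, while its other 3 signals lay from 35037 to 39926. With background correction and loess its log2 ratios had opposite signs, -0.26 on array 1 and 0.63 on array 2. Their mean was 0.18, in place of 0.40 from the deposited ratios.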
